A study of Mus musculus with 6 samples.

Results

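The nuclear genes that code for factors of mitochondrial transcription, rRNA modification, mitochondrial ribosome assembly, RNA processing and translation were followed in NIH/3T3 cells, an immortalized line of mouse fibroblasts, after depletion of Aldoa (siAldoa) or after non-targeting control siRNAs (siCtrl). The genes were chosen by symbol from a list of 36, of which 35 were matched among the 18001 genes of the expression table, and Fastkd5 was not analysed here. Aldoa codes for the glycolytic enzyme aldolase A, and a pool of siRNAs was directed against it. Poly(A) RNA was sequenced 48 h after transfection from 3 libraries per group, which the study calls biological replicates. All cells were NIH/3T3 in serum-containing medium, and both groups were transfected, so that no untransfected sample enters the comparison. The cells were 1 established line, which limits both groups as a model of fibroblasts.

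Mitochondria keep a small genome of their own, which codes for rRNAs, tRNAs and a few subunits of the respiratory chain. Every protein that transcribes it, modifies its rRNAs, assembles its ribosome and translates its mRNAs is coded in the nucleus, made in the cytosol and imported. Many of the nuclear promoters of such genes carry sites for NRF1 and for the ETS factor GABP (also called NRF2), which are textbook regulators of this gene class. The genome-coded transcripts themselves were not analysed here, so the values below describe the nuclear mRNAs of the factors and not their products.

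Expression was given as CPM, the reads of a gene relative to the library's effective size. The libraries held 3692341 to 3771129 reads, and 3 reads in a library corresponded to 0.786 to 0.822 CPM. In each group replicates 1 and 2 were closer to each other (chi-square per degree of freedom 1.11 to 1.12) than either was to replicate 3 (1.97 to 3.03). Replicates 1 and 2 of a group thus differed by little more than counting error. Whether they came from separate cultures was not tested, and the main comparison treats the 3 libraries of a group as independent. By the study's account, ERCC spike-in RNA entered replicate 1 with the lysis buffer and the other replicates only after extraction. Aldoa was at 522, 536 and 545 CPM in the siCtrl libraries and at 62.9, 69.2 and 72.0 CPM in the siAldoa libraries, 12.7% of the control (log2 fold change -2.96, limma adjusted p = 1.3e-21). Fibroblast markers had rows for 14 of 15 symbols and summed to 15439 to 16066 CPM in siCtrl and 13275 to 14062 CPM in siAldoa, with 5 lower and 5 higher (71.4% with a limma adjusted p under 0.05, against 20.4% of all genes). Markers of epithelial, immune, endothelial, muscle and neural cells had rows for 7 of 12 symbols and summed to 17.7 to 20.3 CPM in siCtrl and 8.38 to 13.9 CPM in siAldoa, Krt18 was at 0 reads in every siAldoa library, and their part in the results below was not tested.

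Promoters are shown for the 4 genes of the list that passed the test in siAldoa and for Tfb2m, the partner of Tfam and Polrmt in initiation, because 3 of these genes are needed at the same mitochondrial promoters and yet Polrmt moved against Tfam. RefSeq sequences (build GRCm38.p6) reach from 250 bases before to 50 bases after the start annotated there and were matched for 27 of the 35 genes. Ybey, Mterf3, Noa1, Malsu1, Rbfa, Mtpap, Guf1 and Mtif3 were without an entry. In GENCODE M21 the Tfam gene reaches to 71238280, so nearly all of its window lies within that gene model. Which start these cells use was not tested. Each is written 5′ to 3′ on the strand of its gene, and capitals mark a motif found in either orientation, the ETS motif CCGGAAG, the core CATGCGC of the NRF1 motif, or CCAAT.
Tfam (chr10:71237995-71238294, minus strand): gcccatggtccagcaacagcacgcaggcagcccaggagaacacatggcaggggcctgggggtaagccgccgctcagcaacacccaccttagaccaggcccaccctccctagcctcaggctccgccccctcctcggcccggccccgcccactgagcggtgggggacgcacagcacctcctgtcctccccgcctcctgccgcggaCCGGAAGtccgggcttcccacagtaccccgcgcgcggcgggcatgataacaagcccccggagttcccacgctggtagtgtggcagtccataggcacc
Polrmt (chr10:79746532-79746831, minus strand): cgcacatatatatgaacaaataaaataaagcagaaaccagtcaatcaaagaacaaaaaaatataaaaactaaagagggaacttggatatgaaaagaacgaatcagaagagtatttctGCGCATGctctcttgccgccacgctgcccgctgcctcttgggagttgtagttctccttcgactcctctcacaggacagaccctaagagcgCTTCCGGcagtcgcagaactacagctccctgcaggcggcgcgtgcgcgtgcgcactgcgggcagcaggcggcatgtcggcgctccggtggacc
Gfm1 (chr3:67429865-67430164, plus strand): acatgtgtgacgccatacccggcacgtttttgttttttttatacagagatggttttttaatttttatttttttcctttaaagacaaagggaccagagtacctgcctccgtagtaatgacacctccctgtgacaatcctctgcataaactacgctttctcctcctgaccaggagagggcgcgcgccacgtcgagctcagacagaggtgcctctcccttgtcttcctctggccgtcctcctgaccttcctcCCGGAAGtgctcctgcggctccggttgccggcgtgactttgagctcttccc
Pnpt1 (chr11:29130494-29130793, plus strand): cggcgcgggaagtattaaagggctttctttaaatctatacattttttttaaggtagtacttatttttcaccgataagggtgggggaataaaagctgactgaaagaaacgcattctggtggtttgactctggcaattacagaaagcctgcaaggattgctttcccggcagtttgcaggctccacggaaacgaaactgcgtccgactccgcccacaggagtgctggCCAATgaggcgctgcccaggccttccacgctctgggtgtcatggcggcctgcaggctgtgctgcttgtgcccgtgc
Tfb2m (chr1:179546227-179546526, minus strand): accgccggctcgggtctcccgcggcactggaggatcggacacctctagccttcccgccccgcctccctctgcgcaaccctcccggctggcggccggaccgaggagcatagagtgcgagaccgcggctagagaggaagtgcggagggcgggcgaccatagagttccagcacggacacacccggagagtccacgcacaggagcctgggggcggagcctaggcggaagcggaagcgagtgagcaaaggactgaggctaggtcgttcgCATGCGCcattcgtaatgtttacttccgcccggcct
Tfam and Gfm1 carried the ETS motif, Polrmt the ETS motif and the NRF1 core, both on the opposite strand, Tfb2m the NRF1 core and Pnpt1 only CCAAT. Any part of these motifs in the expression changes was not tested. Across the list CCGGAAG was found in 10 of 27 promoters (37.0%), against 8.86% of all 32851 promoters of the same length and 17.8% of those of the 11192 table genes with an entry. The NRF1 core CATGCGC was found in 5 promoters (18.5%, against 3.91% of all and 7.32% of table genes). The full NRF1 motif, which contains this core, was also searched. It was found in 1 promoter, that of Mtg1 (3.70%, against 0.971% of all and 2.06% of table genes). CCAAT was found in 8 promoters (29.6%, against 37.4% of all and 43.0% of table genes), the E-box CACGTG in 2 (7.41%, against 7.15% and 10.98%), the cAMP response element TGACGTCA in 1 (3.70%, against 1.79% and 3.29%) and the YY1 motif AANATGGCG in 1 (3.70%, against 2.38% and 5.31%). Both strands were searched, and the motifs were chosen after the expression values were known. A match describes these letters in this window and no binding was measured. Variant spellings of the motifs were not searched, so lower case does not show that a site is absent.

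Most of the factors did not pass the test at 48 h. The groups were compared with limma on log2(CPM + 1), with Benjamini-Hochberg adjustment over all 18001 genes and a threshold of 0.05, so that fold changes are on the log2(CPM + 1) scale and understate the change of genes with few reads. Of the 35 genes, 3 were lower (Tfam, Pnpt1 and Gfm1), 1 was higher (Polrmt) and 31 did not pass. These 4 genes are 11.4% of the list, against 20.4% of all genes tested and 26.7% of the 11777 genes within the list's range of mean CPM. By direction, 8.57% were lower and 2.86% higher, against 10.0% and 10.4% of all genes. The median log2 fold change of the list was -0.048 (22 genes negative and 13 positive), and that of all genes was -0.0023. In bulk RNA, fewer cells with a transcript and less of it per cell cannot be told apart.

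**Figure D1:**
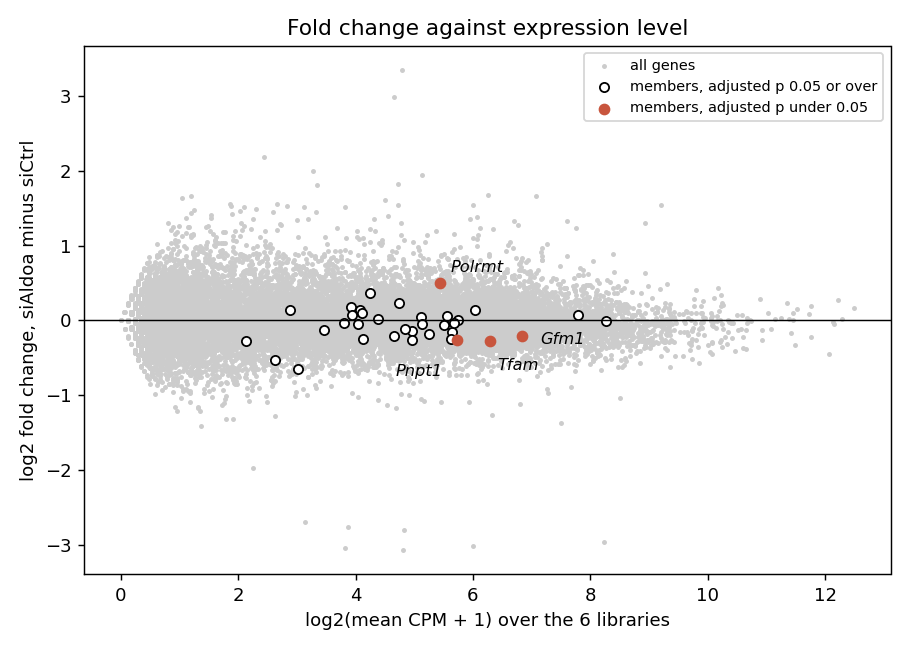
Log2 fold change (siAldoa minus siCtrl, vertical axis) against log2(mean CPM + 1) over the 6 libraries (horizontal axis) for 18001 genes (grey) and the 35 listed genes (circles, filled where the adjusted p was under 0.05). The listed genes lie between -0.65 and 0.51, inside the spread of genes with like expression, and 4 of them are filled.

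In 8 genes all siAldoa libraries lay under all siCtrl libraries (22.9%, against 17.1% of all genes) and in 4 they all lay above (11.4%, against 16.7%). With 3 libraries against 3 an exact permutation test cannot give a two-sided p below 0.1, so these separations are counts only. At an unadjusted p under 0.05, 9 genes of the list were found (7 of them lower, 25.7%, against 30.6% of all genes), and a quasi-likelihood fit of edgeR to the recovered reads called 6 (5 lower, 17.1%, against 21.0%), adding Ybey and Tufm. For 10 of the 31 genes that did not pass, the 95% interval of the fold change lay within 0.3 of 0 on the log2 scale. The half-width of the interval had a median of 0.25 and ran from 0.084 to 0.55, so that differences of this size could be missed with 3 libraries per group. These intervals are not adjusted over all genes. A gene whose interval left out 0 could therefore still fail the test, as Ybey did (-1.17 to -0.13).

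**Figure D2:**
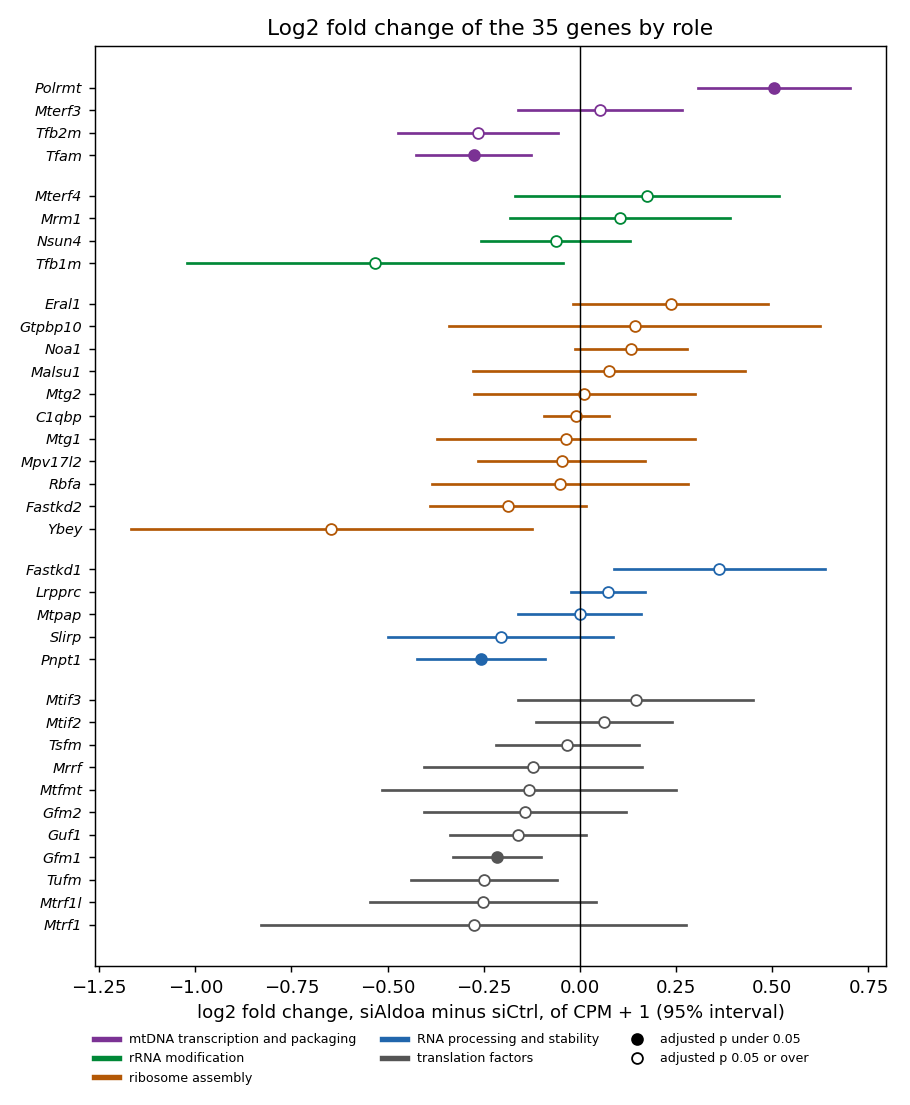
Log2 fold change of CPM + 1, siAldoa minus siCtrl, with its 95% interval (lines) for the 35 genes grouped by role; filled points have an adjusted p under 0.05. Polrmt and Tfam lie on opposite sides of 0, all 11 assembly factors are open, and 9 of 11 translation factors lie below 0.

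The machinery that transcribes and packages mitochondrial DNA did not move in 1 direction. Tfam codes for the HMG-box protein that coats the genome in nucleoids and bends promoter DNA for initiation. It lies on chromosome 10 of GRCm38 from 71225464 to 71238280 on the minus strand (ENSMUSG00000003923). It was at 92.9, 82.9 and 78.0 CPM in siCtrl replicates 1, 2 and 3 and at 69.9, 72.4 and 66.2 CPM in siAldoa replicates 1, 2 and 3. Each siAldoa library was below each siCtrl library, and siCtrl replicate 1 was the highest. The mean fell from 84.6 ± 7.55 to 69.5 ± 3.11 CPM (SD, n = 3), 82.2% of the control (log2 fold change -0.28, standard error 0.072, limma adjusted p = 0.0073). Leaving out siCtrl replicate 1 gave a log2 fold change of -0.21 (limma adjusted p = 0.075), and leaving out siAldoa replicate 3 gave -0.24 (0.064), both no longer past the threshold.

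Polrmt, which codes for the single-subunit RNA polymerase that transcribes the mitochondrial genome and makes its replication primers, moved the other way. It lies on chromosome 10 from 79736123 to 79746581 on the minus strand (ENSMUSG00000020329). It was at 34.0, 36.9 and 33.6 CPM in siCtrl replicates 1, 2 and 3 and at 54.5, 43.3 and 52.4 CPM in siAldoa replicates 1, 2 and 3. All siAldoa libraries were above all siCtrl libraries, with siAldoa replicate 2 the nearest to the control. The mean rose from 34.8 ± 1.83 to 50.1 ± 5.95 CPM (SD, n = 3), 143.7% of the control (log2 fold change 0.51, standard error 0.095, limma adjusted p = 0.00038). This was the highest fold change of the list and the only increase that passed. It stayed past the threshold when any single library was left out (log2 fold change 0.44 to 0.60), with edgeR (adjusted p = 0.00014) and with DESeq2 (adjusted p = 0.0025).

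Tfb2m codes for the factor that opens the promoter together with the polymerase. It was at 32.3, 35.6 and 31.7 CPM in siCtrl and at 27.3, 27.8 and 27.2 CPM in siAldoa. The groups did not overlap, yet the difference did not pass over all genes (log2 fold change -0.27, limma adjusted p = 0.067). Mterf3, a negative regulator of mitochondrial transcription, was at 32.9 ± 3.01 and 34.1 ± 2.94 CPM (SD, n = 3; log2 fold change 0.051, limma adjusted p = 0.80), and its groups overlapped.

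Because the polymerase and its partners act together, their mRNAs were also set against each other inside each library, a comparison chosen after the values were seen and in which library scaling cancels. The ratio of Polrmt to Tfam reads was 0.366, 0.446 and 0.431 in the siCtrl libraries and 0.780, 0.598 and 0.791 in the siAldoa libraries. Every siAldoa ratio was higher, and the log2 difference was 0.80. Polrmt was higher and Tfam and Tfb2m were lower in every siAldoa library than in any siCtrl library. The separation of both ratios was therefore fixed by the single genes and is no further evidence, so no test is given for it. The ratio of Polrmt to Tfb2m reads was 1.05, 1.04 and 1.06 in siCtrl and 2.00, 1.56 and 1.92 in siAldoa, a log2 difference of 0.79. Tfb2m has a near-identical stretch in the pseudogene Gm1818, so its reads, and with them this ratio, are uncertain. The summed CPM of the 4 transcription genes was 176 to 191 in siCtrl and 179 to 182 in siAldoa, so their total did not separate the groups.

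**Figure D3:**
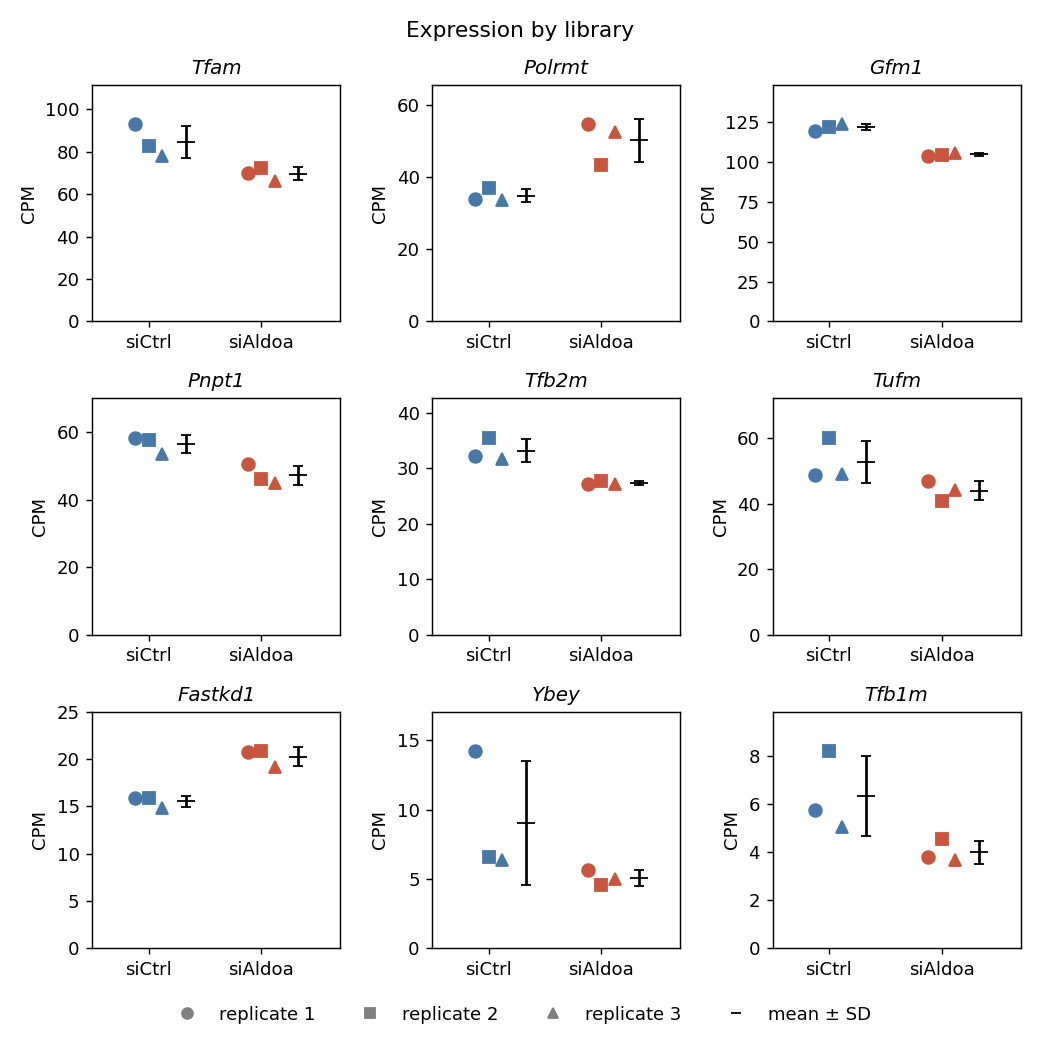
CPM (vertical axes, each starting at 0) of 9 genes in each library, with replicate number by symbol, siCtrl in blue and siAldoa in red, and mean ± SD of 3 libraries beside them. The groups do not overlap in any panel; Polrmt and Fastkd1 are higher in siAldoa, and the siCtrl mean of Ybey rests on 1 library at 14.2 CPM.

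None of the 4 genes for rRNA modification passed the test (limma adjusted p from 0.12 to 0.71). Tfb1m codes for the methyltransferase that dimethylates adenines of the small-subunit rRNA. It was at 5.75, 8.21 and 5.03 CPM in siCtrl and at 3.78, 4.54 and 3.67 CPM in siAldoa, with groups that did not overlap (log2 fold change -0.53, standard error 0.24, limma adjusted p = 0.12). With 14 to 30 reads per library and transcript stretches that match many other loci, its level is uncertain. Nsun4, an RNA cytosine methyltransferase, and Mterf4, its partner on the large subunit, had log2 fold changes of -0.063 and 0.18, and Mrm1, which methylates riboses of the large-subunit rRNA, had 0.10, with overlapping groups in all of these.

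Among the 11 ribosome assembly factors none passed the test, and their median log2 fold change was -0.0093, with 6 negative and 5 positive. Ybey codes for an endoribonuclease of small-subunit maturation and had the lowest fold change of the list. It lies on chromosome 10 from 76459567 to 76469114 on the minus strand (ENSMUSG00000033126). It was at 14.2, 6.57 and 6.35 CPM in siCtrl and at 5.67, 4.54 and 4.97 CPM in siAldoa. The groups did not overlap, and siCtrl replicate 1 was far above the other libraries. Its log2 fold change of -0.65 had a standard error of 0.25 and did not pass (limma adjusted p = 0.075), and the quasi-likelihood fit of edgeR called it lower (adjusted p = 0.026), whereas DESeq2 did not (0.11). With siCtrl replicate 1 left out it was -0.30 (limma adjusted p = 0.44), so that this library decides its size. It had 17 to 52 reads per library, and its 95% interval ran from -1.17 to -0.13.

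The other assembly factors stayed closer to 0. The GTPases of the large subunit Mtg1, Mtg2 and Gtpbp10 had log2 fold changes of -0.037, 0.011 and 0.14, and Noa1, a GTPase linked to the small subunit, had 0.13 with groups that did not overlap (limma adjusted p = 0.21). Eral1, a GTPase that chaperones the small-subunit rRNA, was at 20.5, 21.9 and 28.3 CPM in siCtrl and at 27.5, 28.6 and 27.0 CPM in siAldoa. Its groups overlapped through siCtrl replicate 3, and without that library it was called higher (log2 fold change 0.37, limma adjusted p = 0.049, against 0.24 and 0.20 with all libraries), but not without replicate 3 of both groups (0.39, limma adjusted p = 0.11). C1qbp, an acidic matrix protein that binds RNA and ribosomes, was at 305 to 310 CPM in siCtrl and 296 to 313 CPM in siAldoa, with a log2 fold change of -0.0093 (95% interval -0.094 to 0.075), the narrowest interval of the list. Fastkd2, which binds the large-subunit rRNA, had a log2 fold change of -0.19 (limma adjusted p = 0.20). Mpv17l2, Malsu1 and Rbfa, further factors of subunit assembly, lay between -0.052 and 0.076. The summed CPM of the 11 genes was 542 to 545 in siCtrl and 534 to 558 in siAldoa.

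Of the 5 genes of mitochondrial RNA processing and stability, Pnpt1 was lower. It codes for polynucleotide phosphorylase, which degrades mitochondrial RNA. It lies on chromosome 11 from 29130744 to 29161828 on the plus strand (ENSMUSG00000020464). It was at 58.3, 57.7 and 53.4 CPM in siCtrl and at 50.5, 46.0 and 45.04 CPM in siAldoa. The groups did not overlap, and the mean fell from 56.5 ± 2.67 to 47.2 ± 2.90 CPM (SD, n = 3), 83.5% of the control (log2 fold change -0.26, standard error 0.080, limma adjusted p = 0.024). The call was lost with DESeq2 (adjusted p = 0.14) and without siCtrl replicate 1, siCtrl replicate 2, siAldoa replicate 2 or siAldoa replicate 3 (limma adjusted p from 0.091 to 0.10).

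Fastkd1, an RNA-binding protein of the FASTK family, was at 15.9, 15.9 and 14.8 CPM in siCtrl and at 20.8, 20.8 and 19.1 CPM in siAldoa. Its groups did not overlap, and it stood just outside the threshold (log2 fold change 0.36, standard error 0.13, limma adjusted p = 0.055). Lrpprc and Slirp code for the partners of a complex that stabilizes mitochondrial mRNAs. Lrpprc was at 211 to 217 CPM in siCtrl and 218 to 237 CPM in siAldoa (log2 fold change 0.072, 95% interval -0.024 to 0.17), without overlap. Slirp was at 18.4 to 29.8 CPM over both groups (log2 fold change -0.21, limma adjusted p = 0.35), but 93.9% of its exon bases are shared on the opposite strand with Snw1, and the use of strand in counting is not given in the sources used here. Mtpap, the mitochondrial poly(A) polymerase, had a log2 fold change of -0.00076 (95% interval -0.16 to 0.16).

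Of the 11 translation factors 9 had a negative log2 fold change (81.8%, against 50.4% of all genes), the median was -0.14, and 1 passed the test (9.09% lower, against 10.0% of all genes). Negative signs were also frequent among the proteins of the large (79.5%) and small (74.2%) mitochondrial ribosomal subunits and the other mitochondrial expression factors (70.9%), and no difference from these lists was tested. Gfm1 codes for the elongation factor that moves the ribosome along the mRNA. It lies on chromosome 3 from 67430096 to 67476529 on the plus strand (ENSMUSG00000027774). It was at 120, 122 and 124 CPM in siCtrl and at 104, 105 and 106 CPM in siAldoa. The libraries of each group lay close together, and the mean fell from 122 ± 1.94 to 105 ± 0.962 CPM (SD, n = 3), 86.0% of the control (log2 fold change -0.22, standard error 0.055, limma adjusted p = 0.0060). It stayed past the threshold when any single library was left out (limma adjusted p from 0.017 to 0.030), and DESeq2 gave an adjusted p of 0.053.

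Tufm codes for the factor that brings aminoacyl-tRNAs to the ribosome. It lies on chromosome 7 from 126487361 to 126490731 on the plus strand (ENSMUSG00000073838). It was at 48.8, 60.2 and 49.2 CPM in siCtrl and at 47.0, 40.9 and 44.3 CPM in siAldoa. The groups did not overlap, siCtrl replicate 2 was the highest, and the log2 fold change of -0.25 had a limma adjusted p of 0.056 and an edgeR adjusted p of 0.047, which was 0.093 for edgeR with the replicate block and 0.18 for DESeq2. Leaving out siCtrl replicate 2 gave -0.15 (limma adjusted p = 0.31). The pseudogene Gm9755 is 99.9% identical to a Tufm transcript over 1356 bases and was itself at 91.3 to 98.6 CPM in siCtrl and 85.0 to 86.1 CPM in siAldoa (log2 fold change -0.16, limma adjusted p = 0.074), so the split of reads between them is uncertain. Tsfm, which recharges Tufm's product with GTP, was at 44.3 to 56.6 CPM in siCtrl and 47.8 to 52.7 CPM in siAldoa (log2 fold change -0.033).

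For initiation, Mtfmt, which formylates the initiator methionyl-tRNA, had a log2 fold change of -0.13, and the initiation factors Mtif2 and Mtif3 had 0.063 and 0.14. Mtif2 and Mtif3 were the only translation factors of the list above 0. Guf1, the LepA-type GTPase, had -0.16, and the release factors Mtrf1 and Mtrf1l had -0.28 and -0.25, of which Mtrf1l had groups that did not overlap (16.4 to 19.3 CPM in siCtrl, 13.5 to 15.8 CPM in siAldoa, limma adjusted p = 0.24). Mtrf1 had 9 to 21 reads per library, the fewest of the list, and without siCtrl replicate 2 its log2 fold change was -0.021. The ribosome recycling factors Mrrf and Gfm2 had -0.12 and -0.14, with overlapping groups. The summed CPM of the 11 genes was 421 to 448 in siCtrl and 379 to 411 in siAldoa, without overlap. Gfm1 held 120 to 124 CPM of this sum in siCtrl and 104 to 106 CPM in siAldoa. Without Gfm1 the sums of the groups overlapped.

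Replicate 3 differed most from the other libraries of its group. Without replicate 3 of both groups the log2 fold changes of Tfam, Polrmt, Pnpt1 and Gfm1 were -0.30, 0.45, -0.26 and -0.21, and with 2 libraries per group none of them passed (limma adjusted p from 0.074 to 0.14). Nor did any of them pass without replicate 1 of both groups (limma adjusted p from 0.066 to 0.16). Without replicate 2 of both groups only Polrmt passed (limma adjusted p = 0.012). With replicates 1 and 2 of each group averaged, Tfam, Gfm1 and Polrmt remained past the threshold and Pnpt1 did not (limma adjusted p = 0.055).

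**Figure D4:**
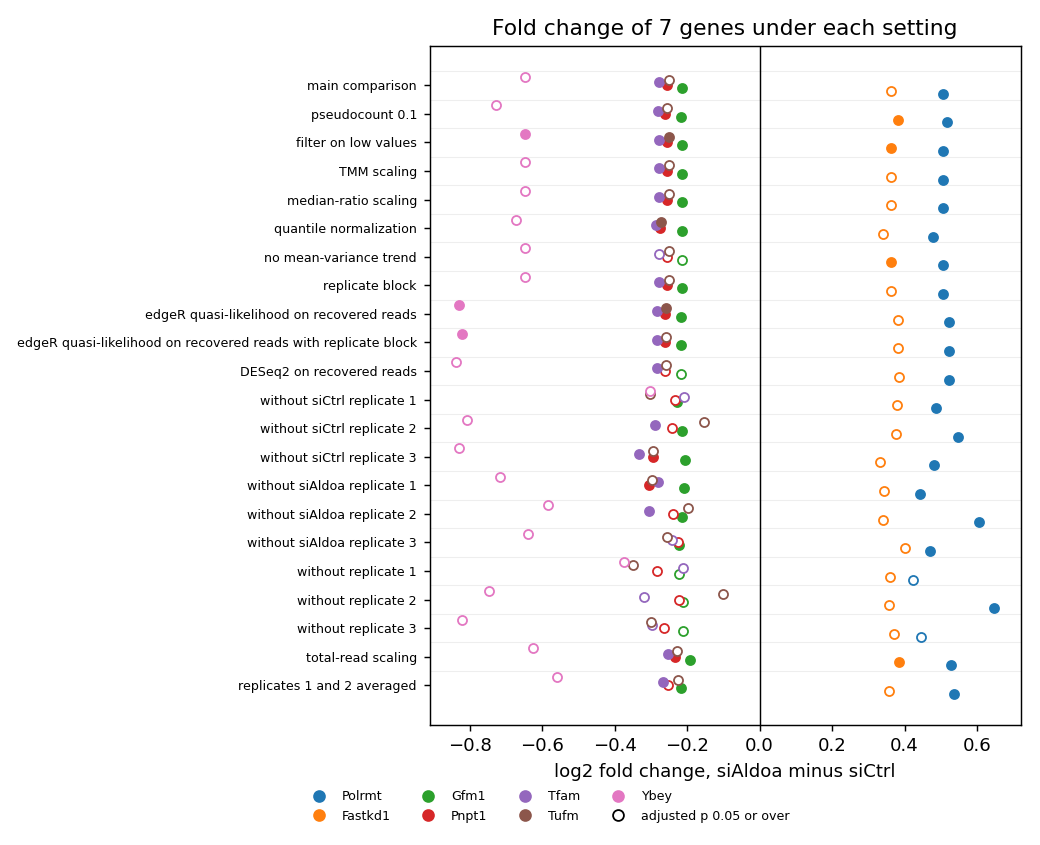
Log2 fold change of 7 genes (colours) under the main comparison and each alternative setting (rows); filled points have an adjusted p under 0.05. Tfam, Pnpt1, Gfm1, Tufm and Ybey stay below 0 and Polrmt and Fastkd1 above 0 in every row, whereas the filling changes between rows.

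Levels of different genes were compared in siCtrl per kilobase of merged exons. C1qbp was highest at 109 CPM per kilobase, followed by Gfm1 (27.6), Mpv17l2 (26.2), Lrpprc (25.2), Tufm (24.8) and Tfam (19.1). The libraries of Mpv17l2 (23.8 to 28.2) and Tufm (22.9 to 28.3) span those of Gfm1 and Lrpprc, so the order of these 4 genes is not resolved. Polrmt was at 7.43 CPM per kilobase, below Tfb2m at 11.8, and the lowest were Tfb1m (1.75), Mtrf1 (1.61), Ybey (1.59) and Gtpbp10 (0.888). The levels of Tufm and Tfb2m are further uncertain. Their near-identical pseudogenes Gm9755 and Gm1818 were at 95.5 and 41.7 CPM in siCtrl, and reads may be split between them.

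The proteins that work with these factors were taken from lists of known members. Of 55 measured genes for other mitochondrial expression factors, 5 were lower and 2 higher (9.09% and 3.64%, against 10.0% and 10.4% of all genes), with a median log2 fold change of -0.10. The lowest past the threshold were Elac2, the tRNA 3′ processing nuclease (-0.37), Ptcd3, a protein of the small subunit (-0.30), and Trnt1, which adds CCA to tRNAs (-0.26). The increases past the threshold were in Trmt10c, a subunit of mitochondrial RNase P (0.41), and Ptcd1, a PPR-domain RNA-binding protein (0.39). Among the proteins of the large mitochondrial ribosomal subunit 8 of 44 were lower and 0 higher (18.2%, against 10.0% of all genes that were lower), with a median of -0.13. Its summed CPM was 1951 to 1957 in siCtrl and 1727 to 1816 in siAldoa. Of the genes past the threshold, the lowest were Mrpl12 (-0.71), Mrpl55 (-0.70) and Mrpl42 (-0.44). The small subunit had 2 of 31 lower (Mrps27, -0.48; Mrps26, -0.39) and 2 higher (Mrps6, 0.27; Mrps5, 0.25), 6.45% in each direction against 10.0% and 10.4% of all genes, with a median of -0.090. No difference between these lists and the 35 genes was tested.

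Mitochondrial proteases and chaperones had 5 of 13 lower and 0 higher (38.5%, against 10.0% of all genes), with a median of -0.12. The lowest past the threshold were Htra2, a protease of the intermembrane space (-0.33), and Hspe1 (-0.24) and Phb (-0.23), a co-chaperonin and a prohibitin. Of 13 regulators of nuclear genes for mitochondrial proteins, 2 were lower and 2 higher (15.4% in each direction, against 10.0% and 10.4% of all genes). Esrra, a nuclear receptor that acts with PGC-1 coactivators, was at 36.1 to 39.7 CPM in siCtrl and 54.3 to 60.7 CPM in siAldoa (log2 fold change 0.60, limma adjusted p = 1.1e-05). Gabpb2 (0.48) and Gabpa (-0.17), which code for partner subunits of the ETS factor GABP, moved in opposite directions, and Myc was lower (-0.29). Nrf1 was at 76.2 to 84.8 CPM in siCtrl and 73.7 to 81.3 CPM in siAldoa (log2 fold change -0.061, limma adjusted p = 0.60).

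**Figure D5:**
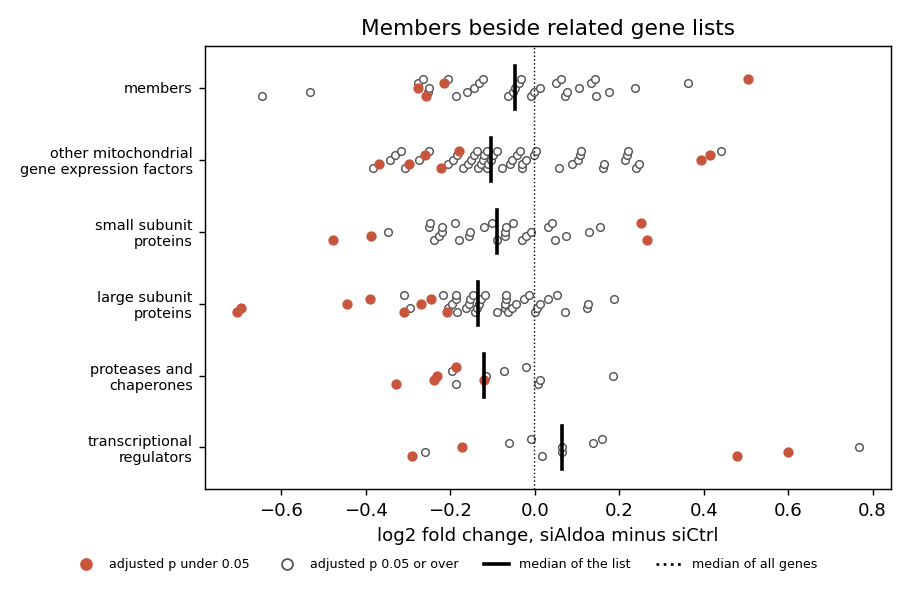
Log2 fold change (siAldoa minus siCtrl, horizontal axis) of each measured gene in the list and in 5 related lists (rows); filled points have an adjusted p under 0.05, bars mark list medians and the dotted line the median of all genes. The medians are -0.048 for the 35 genes and -0.13 for large-subunit proteins, and 0.065 for the regulators.

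Reads of some of the 35 genes could not be assigned with certainty. In GENCODE M21, 19 of them share no exon base with another gene and 16 do, 7 of these for 10% or more of their exon bases. Tfam, Polrmt and Pnpt1 share none, and Gfm1 shares 1.43% with Lxn on the opposite strand. None of these 4 had a stretch of 200 bases or more that was at least 90% identical to another transcript. Tfb2m matches the pseudogene Gm1818 at 99.3% over 1187 bases, and Gm1818 was lower in siAldoa (log2 fold change -0.33, limma adjusted p = 0.013). Gtpbp10 matches Gm6877 at 99.6% over 1101 bases. Malsu1, Mterf4 and Mtif3 share 40.5%, 35.2% and 29.4% of their exon bases with Igf2bp3, Sned1 and Gtf3a on the opposite strand.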

How the data were processed

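RNA was isolated 48 h after transfection from 3 siCtrl and 3 siAldoa samples of NIH/3T3. The authors prepared stranded poly(A) libraries, aligned the reads to mm10 with bowtie2 (version 2.2.7), drew equal numbers of reads at random, tabulated them by gene with GenomicAlignments and deposited CPM of an effective library size. The authors also deposited their own comparison from edgeR, which was not used. Gene filtering at 12 reads did not hold for 1834 genes of the table.

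Whole multiples of the value of 1 read in each library gave back reads for 100% of the values (tolerance 0.001 reads), 3692341 to 3771129 per library. The reads have no molecular identifiers, so counting precision covers counting error only. Recomputed TMM factors equalled the deposited scaling.

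The comparison used limma (version 3.58.1, in R version 4.3.3) on log2(CPM + 1) with its trend option, two-sided, over 18001 genes. edgeR (version 4.0.16) called 3786 genes on the recovered reads, limma 3676, and DESeq2 (version 1.42.0) 2183. All were tested on simulated data. Other pseudocounts, filters, scalings, tests, the replicate block and left-out libraries were tried. The replicate numbers come from the labels and do not name a shared culture.

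The genes and lists were chosen with earlier results of these data known. Values per library are given for genes past the threshold, Ybey, Tfam, Polrmt and genes on which limma and edgeR differ. Tfb2m, Tfb1m, Fastkd1 and Eral1 were added after their values were seen. In related lists at most 3 lowest and 3 highest genes past the threshold are named, and Nrf1 was added after its values were seen. Gene models are from GENCODE M21 (GRCm38, 17932 identifiers matched), similar transcripts from blastn (version 2.17.0) and promoters from RefSeq.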

Additional observations from a re-analysis of the deposited data

How the results depend on the processing

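Tfam, Pnpt1, Gfm1 and Polrmt kept their direction under all 21 alternatives, as did 20 of the 35 genes in all, and Aldoa stayed past the threshold throughout. Of 734 values of single genes, 655 kept direction and side of the threshold, 23 no longer passed, 12 newly passed and 44 turned sign, 35 of these with libraries left out. The cause was not tested except where fewer samples or genes entered.

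Lower genes of the list numbered 5 with the filter on low values (adding Ybey and Tufm), 5 with quantile normalization (adding Tfb2m and Tufm), 5 with edgeR, 1 with DESeq2 (Tfam) and 0 without a mean-variance trend, against 3. Higher genes numbered 2 with a pseudocount of 0.1, the filter, no trend and total-read scaling (adding Fastkd1), against 1. With libraries left out the counts were 0 to 3 and 0 to 2. Over all genes 616 lower and 824 higher were called without a trend, 1117 and 1066 with DESeq2, 1148 and 1160 at a threshold of 0.01, and 520 to 1371 and 494 to 1464 with libraries left out, against 1809 and 1867. In the related lists, 22 lower and 6 higher became 6 and 2 without a trend, 14 lower with DESeq2, and 4 to 19 and 2 to 7 with libraries left out.

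Signs turned for Mtg2 (-0.0049) and C1qbp (0.039) with quantile normalization, for C1qbp with total-read scaling (0.014) and with replicates 1 and 2 averaged (0.00031), and for Mtpap with edgeR (0.0011, also with the block, 0.0011), DESeq2 (0.0010), total-read scaling (0.022) and averaging (0.021). Total-read scaling and averaging were chosen after seeing the data. With libraries left out, log2 fold changes ran from -0.0089 to 0.12 for Mterf3, -0.21 to 0.012 for Nsun4, -0.14 to 0.049 for Mtg1, -0.16 to 0.14 for Mtg2, -0.060 to 0.30 for Gtpbp10, -0.028 to 0.019 for C1qbp, -0.13 to 0.037 for Mpv17l2, -0.080 to 0.27 for Malsu1, -0.19 to 0.12 for Rbfa, -0.47 to 0.023 for Slirp, -0.045 to 0.028 for Mtpap, -0.34 to 0.026 for Mtfmt, -0.17 to 0.061 for Tsfm, -0.39 to 0.072 for Mrrf and -0.37 to 0.081 for Gfm2.

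Libraries with the same number deviated from their group means with correlations of 0.030, 0.014 and 0.13 across 10059 genes with a mean CPM over 10. Between the groups, siCtrl replicate 1 with siAldoa replicate 2 gave 0.038, and siCtrl replicate 2 with siAldoa replicate 1 gave 0.074. Replicate 3 with replicates 1 or 2 of the other group gave -0.094 to -0.046. Replicates 1 and 2 did not correlate best with their own number, so the numbers were not taken to pair the samples. Whether a batch common to both groups sets replicate 3 apart was not tested. With the replicate block limma called 3170 genes, the fold change of Tfam had an adjusted p of 0.016 and that of Polrmt 0.0052, and the same 4 genes of the list passed. DESeq2 gave no adjusted p for Mtrf1. Depth limits the genes under 10 CPM, Tfb1m, Ybey, Gtpbp10 and Mtrf1.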
